A study of Mus musculus with 6 samples.

Results

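Zfp36l2 and Thada lie next to each other on mouse chromosome 17, with Zfp36l2 from 84183924 to 84187947 and Thada from 84190056 to 84466246 (RefSeq, GRCm38.p6). Open chromatin at both genes was followed in OT1 CD8 T cells from tumors by ATAC-seq, in which a transposase cuts accessible DNA. The loci comprise 54 of the 74686 regions of the deposited count table: 36 at Thada (35 inside the gene) and 18 at Zfp36l2 (1 inside the gene). A region counts as inside a gene when it shares at least 1 base with it, and an intergenic region was assigned to the nearest protein-coding gene within 100 kb. Which gene such a region acts on is not known from its place.

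The pair was picked with the calls of this comparison known, so the calls and folds of these regions are a description and not a test. Thada had 12 opened regions, more than any other of 15503 genes with a region except Gramd3, which had 13, where 4.68% of all regions tested opened.

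In the first group, OT1 cells came from B16-OVA-GP61 tumors that also held SMARTA cells (3 libraries). They were set against OT1 cells from B16-OVA-GP61 tumors without SMARTA cells (3 libraries). OT1 cells bear a transgenic receptor for a peptide of ovalbumin, SMARTA cells, which are CD4 T cells, bear one for the viral epitope GP61, and the B16 melanoma line used carries both antigens. In both groups the cells were sorted for CD8 together with CD45.1, an allele that marks transferred cells. They also share the tumor line, the OT1 receptor and the freezing of sorted cells before the assay, and the labels give neither strain nor age of the mice. The design asks whether CD4 T cells specific for the tumor go with a different chromatin in the CD8 T cells. Nothing in the labels says that replicates came from separate animals, so the spread between libraries may be technical.

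Libraries held 16595779 to 27182809 counts in the regions, and the regions of the 2 loci held 16 to 3915 counts per library, with a median of 116. Replicate 2 with SMARTA cells stood apart from its group on the second principal component of all regions, and values without it are given below. Regions of CD8 T cell genes were open in every library (7 of 8 genes had a region; 14.9 to 17.6 CPM per region with SMARTA cells and 16.5 to 17.8 without), where CPM stands for the count relative to the library's scaled total. Markers of CD4 T cells (4 of 4 genes with a region) were at 10.6 to 11.3 CPM per region with SMARTA cells and 8.41 to 10.1 without, and their part in the results below was not tested. Of their 23 regions, 4 opened (17.4%, against 4.68% of all regions) and 2 closed. The most accessible region averaged 67.0 CPM with SMARTA cells and 57.0 without at Zbtb7b, 30.4 and 23.1 at Cd40lg, 14.5 and 14.3 at Cd4, and 2.35 and 2.19 at Foxp3, in the same order of groups. Melanoma genes Tyr and Tyrp1 had no region. The list's 5 other genes were at 21.8 to 24.1 CPM per region with SMARTA cells and 20.5 to 21.9 without. That level was led by Pmel, whose interval also holds Cdk2, and the part of Cdk2 in it was not tested. The most accessible region averaged 143 CPM with SMARTA cells and 127 without at Pmel, and 36.9 and 29.3 at Mitf. It averaged 5.84 and 6.77 at Mlana, 2.56 and 4.87 at Sox10, and 1.42 and 1.89 at Dct, in the same order of groups. Per region, B cell genes were at 3.33 to 4.33 CPM with SMARTA cells and 4.17 to 5.42 without, myeloid genes at 7.10 to 7.61 and 7.25 to 8.72, and natural killer genes at 12.8 to 15.4 and 13.0 to 14.3 in the same order of groups. In cells measured in bulk, fewer cells with an open region and less opening per cell cannot be told apart.

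Zfp36l2 encodes an RNA-binding protein of the tristetraprolin family, which binds AU-rich elements in messenger RNAs and brings in the CCR4-NOT deadenylase, so that the messages are shortened and decay or are held from translation. In T cells the family is known for restraining cytokine messages such as those of interferon gamma and tumor necrosis factor. Thada encodes a large protein with armadillo-type repeats, first named for rearrangements of its human counterpart in thyroid adenomas, and its yeast relative takes part in tRNA methylation. A long gene can hold regulatory elements of its neighbours, and open regions inside Thada need not belong to Thada.

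The promoter of Thada is shown because the gene's own start was not among the called regions, unlike stretches deep inside the gene. Of the 2 genes, 1 matched the RefSeq promoter table. The window runs from 250 bases before to 50 bases after the start on the minus strand (chr17:84466159-84466458, GRCm38.p6), and 273 of its 300 bases lie in the deposited region at 84466031 to 84466431. Capitals mark 3 motifs picked after reading the sequence.
Thada promoter: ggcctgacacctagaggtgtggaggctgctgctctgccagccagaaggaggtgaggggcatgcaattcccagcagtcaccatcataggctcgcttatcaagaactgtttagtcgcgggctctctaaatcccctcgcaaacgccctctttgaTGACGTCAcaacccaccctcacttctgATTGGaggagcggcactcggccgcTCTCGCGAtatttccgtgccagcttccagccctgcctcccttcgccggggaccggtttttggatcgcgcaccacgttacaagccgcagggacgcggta
Counted from the 5′ end, TGACGTCA, the cAMP response element, begins at base 152. CCAAT, the motif of NF-Y, is found on the opposite strand at base 179 (ATTGG as printed), and TCTCGCGA begins at base 203. The motifs do not overlap, and each was searched on both strands. Among all 32851 promoter windows of the table, 1.79% hold TGACGTCA, 37.4% hold CCAAT and 0.995% hold TCTCGCGA. The G and C content of the window is 59.7%, against a median of 52.7% over all windows. A match is a description of letters and does not show a bound factor.

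At this promoter, accessibility was 67.5, 67.7 and 65.9 CPM with SMARTA cells and 57.9, 65.6 and 62.2 CPM without. The groups did not overlap, but the gap was small, and the region did not pass (log2 fold 0.11 ± 0.07 SE, and -0.01 with loess scaling). It was the sixth most accessible of the 54 regions. Here and below, a log2 fold sets libraries with SMARTA cells over those without, from edgeR's quasi-likelihood fit, and a region is called opened or closed where its Benjamini-Hochberg adjusted p over all regions is below 0.05.

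With SMARTA cells, 13 of the 54 regions opened and 5 closed, while 36 did not pass. Over all regions tested, 4.68% opened and 10.4% closed. In the median the log2 fold was 0.17 over the 54 regions, 0.41 at Thada and 0.12 at Zfp36l2, beside 0.01 over all regions. In 19 of the 54 regions all 3 libraries with SMARTA cells lay above all 3 without, and in 8 all lay below, where the shares over all regions were 15.7% and 18.5%. These shares are printed for reference, since the pair was chosen on this comparison. Over all regions, 3466 of 3497 opened and 7717 of 7767 closed ones had groups that did not overlap. For a called region, groups that do not overlap are therefore no added support.

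Leaving out replicate 1, 2 or 3 of the group without SMARTA cells left 8, 7 and 7 regions opened in that order. The closed regions fell to 2 without replicate 1 with SMARTA cells and without replicate 2 or 3 of the other group. When replicate 2 with SMARTA cells was dropped, 11 opened and 4 closed. Whichever single library was left out, the same 7 opened and 2 closed regions were called. The share of all regions that stay called in every such fit was not counted. These fits share most of their libraries and are no independent check. Both of these 2 closed regions have deposited peaks only in lists without SMARTA cells.

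**Figure D1:**
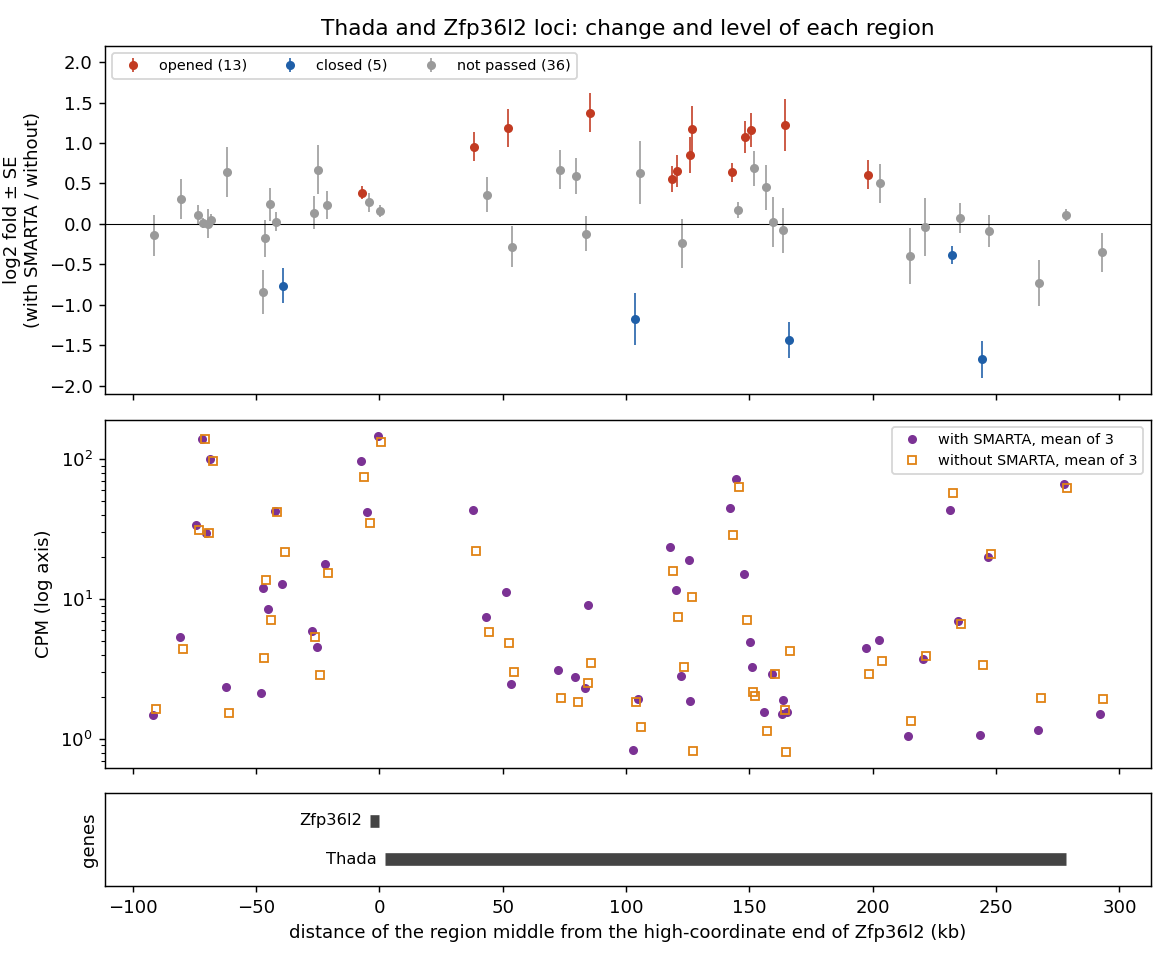
Each point is 1 of the 54 regions, placed by its distance in kb from the high-coordinate end of Zfp36l2. The upper panel gives the log2 fold with SE (with SMARTA over without), the middle panel the mean CPM of 3 libraries per group on a log axis, and the bars below are the genes. The 13 opened regions run from 6.9 kb before to 198 kb after that end, and 4 of the 5 closed ones lie inside Thada.

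Zfp36l2 and its surroundings held the 4 most accessible of the 54 regions. The region at the high-coordinate end of the gene (84187851 to 84188251), which also touches the long noncoding RNA gene Gm36279, had 134, 163 and 147 CPM with SMARTA cells and 139, 130 and 127 CPM without. It was the most accessible of all 54 regions, its groups overlapped, and it did not pass (log2 fold 0.16 ± 0.07 SE, and -0.05 with loess scaling). The region 0.094 kb from the other end (84183430 to 84183830) had 40.7, 41.4 and 44.0 CPM with SMARTA cells and 39.7, 29.5 and 35.8 CPM without. Its groups did not overlap, and it did not pass either (0.27 ± 0.12).

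Of the 18 Zfp36l2 regions, 1 opened and 1 closed, where the shares over all regions were 4.68% and 10.4%. The opened one lies 2.69 kb from the gene, inside the long noncoding RNA gene Gm41640 (84180837 to 84181237). It had 96.6, 110.1 and 86.9 CPM with SMARTA cells and 73.8, 74.7 and 75.9 CPM without. All libraries with SMARTA cells were higher, and those without were close to each other, and the log2 fold was 0.39 ± 0.08 SE. Although small, this call was made in each of the 6 fits that left out a library.

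The closed one lies 34.7 kb from Zfp36l2 inside the long noncoding RNA gene Gm19696 (84148803 to 84149203). Its values were 13.1, 9.62 and 15.5 CPM with SMARTA cells and 16.98, 25.6 and 22.3 CPM without. Every library with SMARTA cells was lower (log2 fold -0.76 ± 0.22 SE), but the call was lost without replicate 1 or 2 with SMARTA cells, without replicate 2 or 3 of the other group and under a replicate block. Of the 5 Zfp36l2 regions inside Gm19696 this was the single one called.

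Farther out, a pair of very open regions 67.1 and 63.9 kb from Zfp36l2 had values close between the groups. The first (84116390 to 84116790) had 139.7, 139.5 and 141.1 CPM with SMARTA cells and 148.8, 139.3 and 127.4 CPM without, a log2 fold of 0.02 ± 0.06 SE. The second (84119578 to 84119978) had 97.4, 105.2 and 97.2 CPM with SMARTA cells and 104.7, 94.2 and 90.1 CPM without (0.05 ± 0.07). In both the groups overlapped. Among the 54 regions, only the one at the high-coordinate end of Zfp36l2 was more accessible than they were.

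At the border of the 100 kb limit, the farthest region taken in lies 87.1 kb from Zfp36l2 and had 1.27, 1.62 and 1.53 CPM with SMARTA cells and 1.79, 1.61 and 1.49 CPM without (log2 fold -0.14 ± 0.25 SE, and 0.02 with loess scaling). The first region left out lies 100.2 kb away and averaged 3.16 ± 1.35 CPM with SMARTA cells and 5.40 ± 1.36 CPM without (SD, n = 3 each). A region 121.9 kb from Zfp36l2 (84061596 to 84061996), with no protein-coding gene within the limit, had 14.4, 14.8 and 10.7 CPM with SMARTA cells and 5.73, 5.46 and 4.46 CPM without. It opened, with a log2 fold of 1.35 ± 0.21 SE. A region 127.2 kb away (84056296 to 84056696) closed, averaging 1.50 ± 0.34 CPM with SMARTA cells and 3.71 ± 1.40 CPM without (-1.32 ± 0.31 SE). On the other side, the border to the next gene, Plekhh2, falls between a Thada region 14.2 kb beyond the gene (1.51 ± 0.26 CPM with SMARTA cells and 1.94 ± 0.19 CPM without) and a region at the near end of Plekhh2 (2.97 ± 0.11 and 3.19 ± 0.27 CPM in the same order of groups).

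Thada carried most of the calls, and they were arranged along the gene. Cut into 3 stretches of equal length after the values were seen, the stretch nearest Zfp36l2 held 3 opened and 0 closed of 8 regions. The middle stretch held 8 opened and 2 closed of 17, and the stretch at the promoter end held 1 opened and 2 closed of 10. Over all regions 4.68% opened and 10.4% closed, so a count of 0 closed among 8 regions is near that share. Differences between the stretches were not tested. In the first stretch, closed regions also numbered 0 at an unadjusted edgeR p below 0.05 and 0 by DESeq2, and the 3 opened ones stayed called without any 1 library. With loess scaling 5 regions of this stretch opened.

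A fit with a library left out has fewer residual degrees of freedom. Over all regions, opened calls went from 3497 to 1809, 1273 and 1224 without replicate 1, 2 or 3 of the group without SMARTA cells. They went up to 4259 without replicate 2 with SMARTA cells. The middle stretch of Thada lost more calls in such fits than the first, and the cause was not tested. There 5 regions opened without replicate 1 or 3 with SMARTA cells, 4 without replicate 1 of the other group, and 3 without its replicate 2 or 3. The 2 closed ones became 1 without replicate 1 or 3 with SMARTA cells or replicate 2 or 3 of the other group, and with loess scaling. At the promoter end the opened region lost its call in each of the 6 fits without a library, with total-count scaling and in DESeq2. Of the 2 closed regions there, 1 was left in every such fit except the one without replicate 3 with SMARTA cells, and 1 was left in DESeq2.

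Summed over the 8 regions nearest Zfp36l2, accessibility was 72.4, 86.0 and 86.2 CPM with SMARTA cells and 39.1, 50.6 and 47.5 CPM without, a ratio of means of 1.78. The opened region at 84226233 alone held 43.1 of the mean 81.5 CPM with SMARTA cells and 22.2 of 45.7 without. The middle stretch summed to 217.9, 208.2 and 206.7 CPM with SMARTA cells and 136.1, 168.5 and 162.3 CPM without, a ratio of 1.36. In both stretches all libraries with SMARTA cells were above all without. At the promoter end the sums were 161.9, 139.9 and 160.2 CPM with SMARTA cells and 158.4, 170.7 and 162.4 CPM without, and the groups overlapped. The 17 intergenic regions of Zfp36l2 summed to 559 ± 8.8 CPM with SMARTA cells and 525 ± 21 CPM without (SD, n = 3 each).

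**Figure D2:**
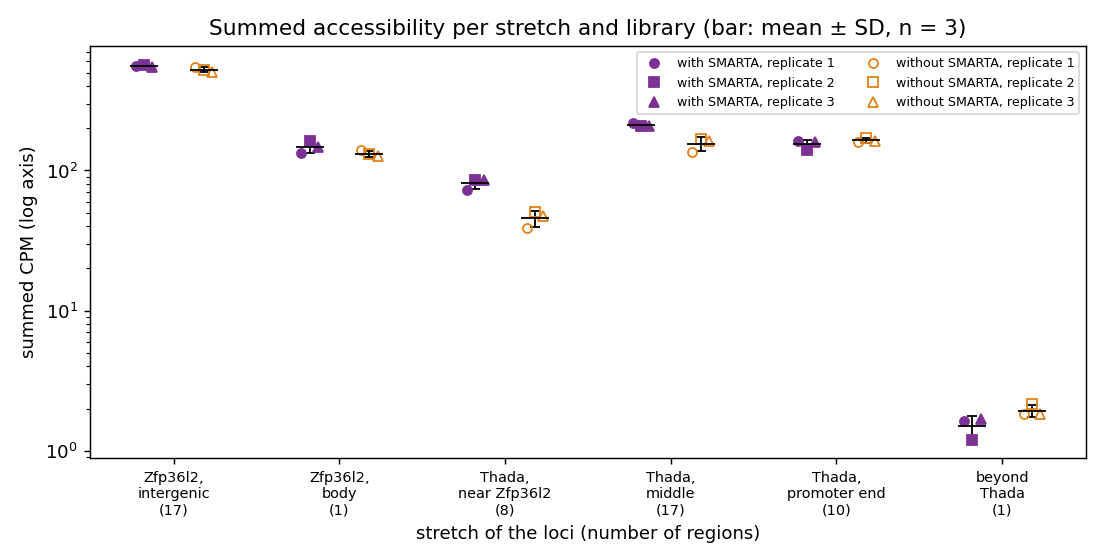
Summed CPM per library (log axis) over the regions of each stretch, with the number of regions in parentheses. Symbols are replicates and bars the mean ± SD of 3 libraries. The 2 Thada stretches nearest Zfp36l2 separate the groups, with 81.5 against 45.7 and 210.9 against 155.6 CPM, while the promoter end does not.

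Nearest Zfp36l2, the first Thada region stands after a gap of 37.98 kb without any region (84226233 to 84226633). It had 38.2, 41.3 and 49.8 CPM with SMARTA cells and 16.8, 28.5 and 21.4 CPM without. The groups were well apart, although replicate 1 without SMARTA cells was low within its group, and the log2 fold was 0.95 ± 0.18 SE. Of the regions assigned to Thada it is the nearest to the gene's low-coordinate end.

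That stretch held 2 more opened regions. The region at 84239670 to 84240070 had 9.67, 14.5 and 9.36 CPM with SMARTA cells and 4.03, 5.11 and 5.50 CPM without (log2 fold 1.19 ± 0.23 SE). At 84272979 to 84273379 the values were 6.01, 11.01 and 10.3 CPM with SMARTA cells and 3.39, 3.42 and 3.68 CPM without (1.38 ± 0.25), the largest opening of the 54 regions. In both, the lowest library with SMARTA cells stood above the highest without. Among the other 5 regions of the stretch, those at 84260936 and 84267629 also had every library with SMARTA cells above those without, with log2 folds of 0.67 ± 0.24 and 0.59 ± 0.22 SE that did not pass.

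In the middle stretch most opened regions came in clusters. A group of 4 lay between 84306161 and 84314737, and another of 3 between 84330520 and 84338959. Inside the first group, the region at 84310463 to 84310863 was not called and its groups overlapped (log2 fold -0.24 ± 0.31 SE). Among fits that left out a library, the call at 84306161 held only without replicate 3 with SMARTA cells. At 84308379 it held only without replicate 2 with SMARTA cells, and both calls were lost under a replicate block. In the first group, the region at 84313552 to 84314309, which is wider than the common length, had 16.7, 25.6 and 14.4 CPM with SMARTA cells and 10.7, 10.1 and 10.6 CPM without. Replicate 2 with SMARTA cells was the highest there, and the call was lost whichever library of the other group was left out. Its neighbour 0.028 kb away (84314337 to 84314737) had 1.99, 1.99 and 1.61 CPM with SMARTA cells and 0.996, 0.654 and 0.827 CPM without (log2 fold 1.17 ± 0.29 SE). In this weak region the groups did not overlap, but its call was lost without replicate 1 or 3 with SMARTA cells and without replicate 2 or 3 of the other group.

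In the second group the most accessible opened region of Thada, at 84330520 to 84330920, had 48.5, 42.2 and 44.4 CPM with SMARTA cells and 24.6, 31.5 and 30.5 CPM without (log2 fold 0.64 ± 0.12 SE). The next, at 84336021 to 84336421, had 14.0, 13.7 and 17.4 CPM with SMARTA cells and 6.17, 7.11 and 8.14 CPM without (1.07 ± 0.19). The last, at 84338559 to 84338959, had 4.89, 4.93 and 4.90 CPM with SMARTA cells and 1.79, 2.73 and 2.03 CPM without (1.16 ± 0.21). None of the 3 overlapped between groups, and each was called without any 1 library. Between the first and the second of them stands the most accessible Thada region (84332926 to 84333326), which was not called. It had 76.5, 64.5 and 74.1 CPM with SMARTA cells and 55.2, 70.4 and 65.5 CPM without, and its groups overlapped (0.17 ± 0.10).

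In the middle stretch of Thada the 2 closed regions lay between opened ones. The 2 at the promoter end lay beyond the last opened region. A weak opened region at 84352099 to 84352499 had 1.43, 2.59 and 1.72 CPM with SMARTA cells and 0.847, 0.923 and 0.661 CPM without. Only 1.24 kb from it, the region at 84353742 to 84354142 closed, with 1.27, 1.86 and 1.57 CPM with SMARTA cells and 3.64, 4.04 and 5.00 CPM without (log2 fold -1.43 ± 0.23 SE). In neither of these neighbours did the groups overlap. The closed region was called without any 1 library, while the opened one kept its call in 1 of the 6 such fits, the one without replicate 1 with SMARTA cells.

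The region that closed most lies 33.9 kb inside Thada from its promoter end (84431982 to 84432382). It had 0.917, 1.32 and 0.973 CPM with SMARTA cells and 3.29, 3.34 and 3.51 CPM without. Every library with SMARTA cells was lower, and the log2 fold was -1.67 ± 0.23 SE. The other 2 closed Thada regions were a weak one at 84291305 (0.84 ± 0.18 CPM with SMARTA cells and 1.85 ± 0.55 CPM without) and a strong one at 84419691 (43.5 ± 6.7 and 57.1 ± 3.9 CPM in the same order of groups; SD, n = 3 each). The strong one closed by a small amount, a log2 fold of -0.39 ± 0.11 SE, and among the fits that left out a library its call held in the 1 without replicate 3 with SMARTA cells. The strong one also lost its call in DESeq2 and under a replicate block. The weak one lost its call without replicate 1 or 3 with SMARTA cells and without replicate 2 or 3 of the other group. It was also lost with loess scaling and under a replicate block.

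**Figure D3:**
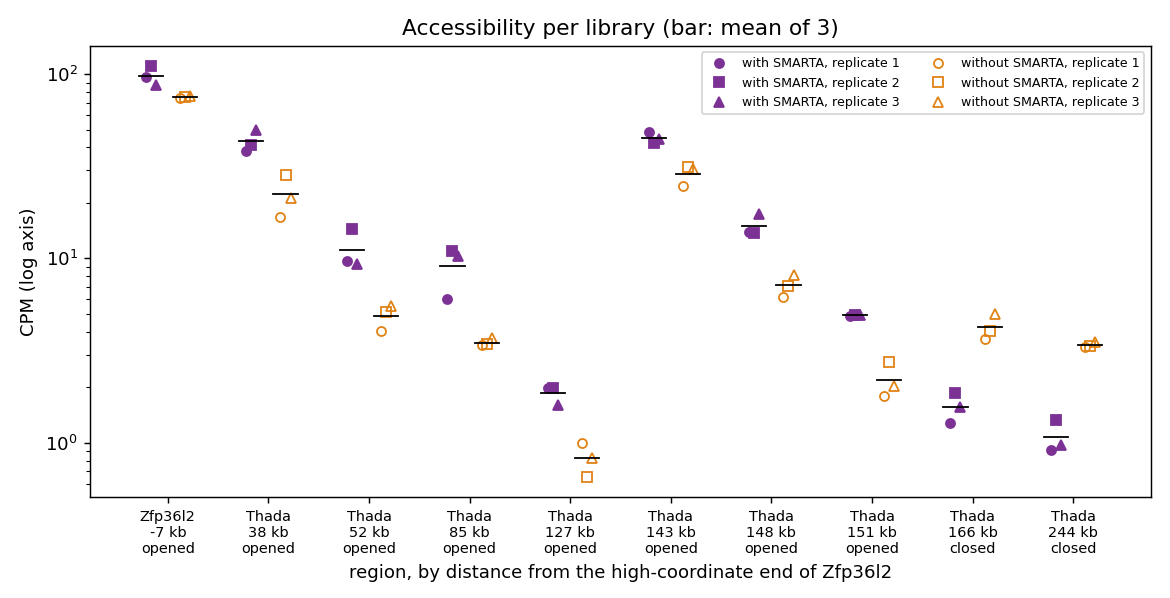
CPM (log axis) of the 10 regions with the smallest p, in order along the chromosome, with 1 symbol per replicate and a bar at the mean of 3. In the 8 opened regions all libraries with SMARTA cells stand above those without, and in the 2 closed ones all stand below. Such separation nearly comes with a call: over all regions, 3466 of 3497 opened and 7717 of 7767 closed ones show it.

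Levels were set beside the calls as a description. The median over opened regions was 3.22 mean log2 CPM and that over closed ones 1.41, beside 2.06 over all regions of the table. Among 5 equal classes of all regions by level, the 13 opened regions fell 2, 0, 3, 4 and 4 from the lowest class to the highest, and the 5 closed ones 1, 2, 0, 1 and 1, among 10, 11, 8, 10 and 15 regions of the 2 loci. Over all regions of the table the share that opened also went up with level, at 1.22, 2.74, 4.16, 5.52 and 9.77%, and the share that closed was 14.0, 13.4, 12.9, 8.98 and 2.77%. Zfp36l2 regions were more accessible than Thada regions in the median, at 4.04 against 1.67 mean log2 CPM. Within groups the coefficient of variation of the 54 regions had a median of 15.5% with SMARTA cells and 15.1% without. Replicate 1 without SMARTA cells was the lowest of its group in 10 of the 13 opened and in all 5 closed regions. Over all 54 regions it was the lowest in 23 and the highest in 21.

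The peaks that the authors called in each library on its own came from the same reads and are no independent check. A deposited peak covered 45, 39 and 47 of the 54 regions with SMARTA cells and 42, 44 and 48 without. In 29 regions all 6 lists had a peak, and in 47 at least 1 list of each group had one. All 13 opened regions had a peak in each of the 3 lists with SMARTA cells. Of these, 10 also had one in all 3 lists without, and the other 3, at 84314337, 84338559 and 84352099, had one in at most 1 of those lists. Of the 5 closed regions, 3 had no peak in any list with SMARTA cells, namely those at 84291305, 84353742 and 84431982. All 54 regions had a peak in 2 or more lists. These 3 closed regions and the opened one at 84352099 have peaks only in the group where they are higher. If peaks in 2 lists were needed to enter the table, they entered through that group alone. Their missing peaks in the other group are then no support for a change.

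**Figure D4:**
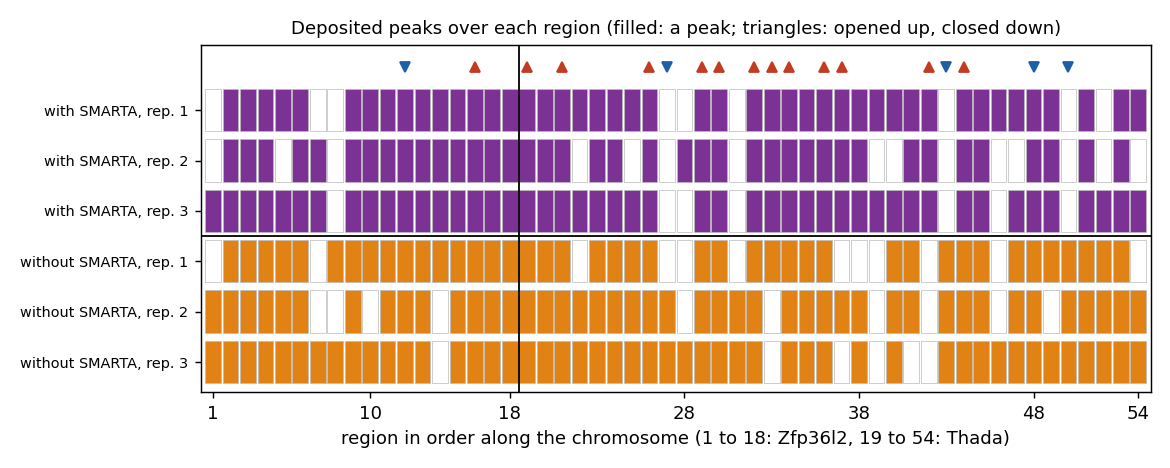
A filled cell is a deposited peak that shares at least 1 base with the region, for each library (rows) and each of the 54 regions in order (columns). Red triangles mark the 13 opened and blue triangles the 5 closed regions. Columns of 29 regions are filled in all 6 rows, and 3 closed Thada regions are empty in all 3 rows with SMARTA cells.

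The other 15 protein-coding genes within 1 Mb were set beside the pair. Of these, 12 had regions, 102 in all, of which 7 opened (6.86%) and 14 closed (13.7%), shares near the 4.68% and 10.4% over all regions. Kcng3, a voltage-gated potassium channel subunit, had 2 opened regions of 10, and Haao, an enzyme of kynurenine breakdown, had 2 opened and 1 closed of 17. Eml4, a microtubule-binding protein, had 1 opened and 3 closed of 16, and Mta3, a subunit of the NuRD complex, 2 closed of 18. Plekhh2, next to the Thada promoter, had 1 closed of 3. With replicate 1 or 3 of the group with SMARTA cells left out, 3 and 4 neighbour regions opened, and with replicate 1, 2 or 3 of the other group left out, 4, 2 and 1 did. Leaving out replicate 3 with SMARTA cells gave 8 closed ones, and leaving out replicate 3 of the other group gave 7. The difference between Thada and its neighbours was not tested.

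Of the 2 other members of the family, 1 had called regions. Zfp36l1, a close relative with the same kind of RNA-binding zinc fingers, had 4 closed and 0 opened of 8 regions (opened regions also numbered 0 at an unadjusted p below 0.05 and 0 by DESeq2). Its strongest region lies 42.3 kb from the gene (chromosome 12, 80065088 to 80065488) and had 4.63, 2.05 and 4.53 CPM with SMARTA cells and 14.5, 18.3 and 20.2 CPM without. All libraries with SMARTA cells were far lower, a log2 fold of -2.22 ± 0.29 SE (edgeR adjusted p = 0.0010). Both Zfp36l1 regions inside the gene did not pass (log2 folds 0.13 ± 0.20 and 0.21 ± 0.10 SE). Without replicate 3 of either group, 1 Zfp36l1 region was called closed. Zfp36, which encodes tristetraprolin, had 0 of 5 regions called by edgeR and 0 by DESeq2, with 1 higher at an unadjusted p below 0.05 (0.40 ± 0.15 SE, edgeR adjusted p = 0.11). Over all regions 4.68% opened and 10.4% closed, so counts of 0 among 8 or 5 regions are near those shares. No test compared the 3 genes with each other.

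**Figure D5:**
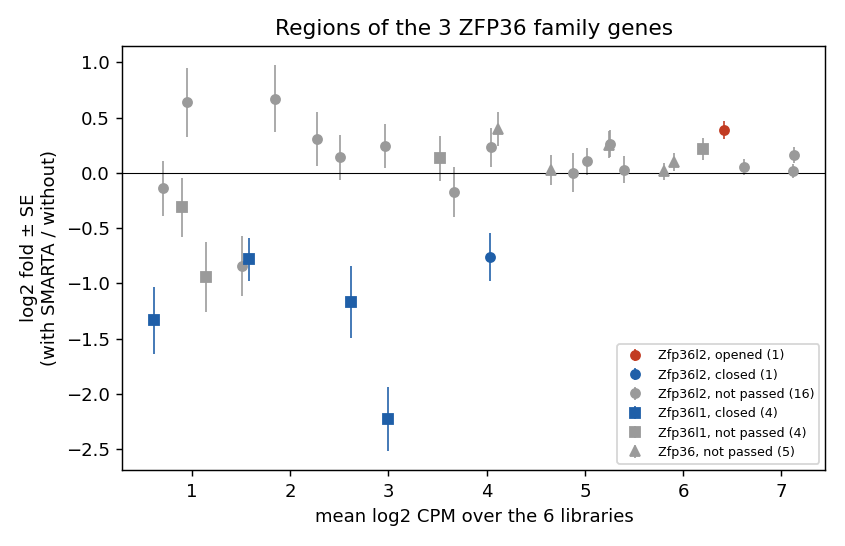
Log2 fold with SE (with SMARTA over without) against mean log2 CPM for every region of Zfp36l2 (circles), Zfp36l1 (squares) and Zfp36 (triangles). Closed regions (blue) are 4 of 8 at Zfp36l1 and 1 of 18 at Zfp36l2, and none at Zfp36. The single opened one (red) belongs to Zfp36l2.

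Across a list of 35 other genes of messenger decay, all of which had regions, 11 of 214 regions opened (5.14%), 25 closed (11.7%) and 178 did not pass. These shares lie near the 4.68% and 10.4% over all regions. The median log2 fold was 0.04, beside 0.01 over all regions. By gene, 2 held opened regions alone, 7 closed ones alone, 5 both and 21 neither. Btg1, an antiproliferative partner of the CCR4-NOT deadenylase, held 5 opened and 6 closed of 30 regions. Xrn1, the main cytoplasmic exonuclease of decapped messages, held 3 closed of 7, the strongest with a log2 fold of -1.97 ± 0.24 SE (edgeR adjusted p = 0.00068). Cnot10, a subunit of CCR4-NOT, had a region inside the gene that averaged 0.997 ± 0.195 CPM with SMARTA cells and 7.10 ± 1.47 CPM without (SD, n = 3 each; -2.83 ± 0.25 SE, edgeR adjusted p = 0.00026).

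The list's counts changed with a library left out and with the scaling. With replicate 1, 2 or 3 of the group without SMARTA cells left out, 4, 7 and 3 regions opened, and the count was 7 with total-count scaling and 6 both with loess scaling and in DESeq2. Closed ones fell to 14 without replicate 3 with SMARTA cells and to 16 without replicate 3 of the other group. At Btg1, 3, 3 and 2 regions opened without replicate 1, 2 or 3 of the group without SMARTA cells and 3 with total-count scaling, and 2 and 3 closed without replicate 3 of the group with and of the group without SMARTA cells.

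For each gene with at least 10 regions, the mean deviation of its regions from their own mean log2 CPM gave a profile of 6 libraries. Thada's profile was 0.11, 0.14 and 0.10 with SMARTA cells and -0.18, -0.10 and -0.06 without. Over the other 1695 genes with so many regions, the 5 nearest to it by Euclidean distance were Smad7, Gpr132, Lef1, Phf14 and Jade1, at 0.050 to 0.092, where the median gene was at 0.56. The profile of Zfp36l2 was -0.03, 0.07 and 0.06 with SMARTA cells and 0.07, -0.10 and -0.07 without. Its 5 nearest were Nav2, Trappc9, Anxa6, Arrdc3 and Msh3, at 0.079 to 0.100. Thada and Zfp36l2 stood 0.30 from each other, so neither was among the nearest of the other. All profiles share the same 6 libraries and their depth.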

How the data were processed

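ATAC-seq counts of 6 libraries were analysed, grouped by their titles. The deposited table holds whole-number counts per region without normalization, and its column names match the names of each library's own deposited peak file. Per the submitters' processing notes, the build was GRCm38 and the tools were DiffBind 3.4.11, MACS2 2.1.1, Picard 2.18.9, SAMtools 1.8 and BWA 0.7.17, with no role given. For duplicate removal, the transposase shift and the counting rule, nothing is given in the sources used here, and any duplicate reads left in would raise counts. Peak lists were deposited per library. In the file's columns the authors give each peak a score, a fold enrichment ratio, a −log10 p and a −log10 q, and a summit. Only peak positions and the −log10 q were used.

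All 74686 regions were fitted with edgeR 4.0.16 (R 4.3.3): TMM scaling, filterByExpr, glmQLFit, glmQLFTest and Benjamini-Hochberg adjustment at 0.05. The biological coefficient of variation was 18.0%. CPM are TMM-scaled, and log2 CPM use a prior count of 2. The SE is the size of the log2 fold over the root of F. The code was tested on simulated counts. No replicate pair agreed within sampling noise (lowest chi-square per degree of freedom 2.76).

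Named regions are, per gene, those nearest each end and the most accessible, the 10 with the smallest p, and those at the limits of assignment. Other called regions are named because of their values. The members and lists were chosen with earlier results of these data known. Positions are as deposited. No genome sequence was used here, and exons and introns were not distinguished. Alternatives were total-count, size-factor and loess scaling, DESeq2 1.42.0, filters on low counts, a replicate block, leaving out each library, narrower assignment and stricter peaks.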

Additional observations from a re-analysis of the deposited data

How the results depend on the processing

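No called region at Thada or Zfp36l2 changed sign under any of the alternative scalings, filters, tests or left-out libraries that were run. With 1 library left out, 7 to 11 regions of both loci opened, against 13 with all 6, and 2 to 4 closed, against 5. At Thada alone 6 to 10 opened and 2 to 3 closed, and at Zfp36l2 1 to 2 opened and 0 to 1 closed. Over all regions, 3497 opened and 7767 closed, with 1224 to 4259 opened and 4403 to 8410 closed when 1 library was left out. With DESeq2's test, 12 opened and 4 closed regions of the 2 loci kept their calls. With loess scaling all 13 opened and 4 of the 5 closed regions kept theirs, and 3 more opened. Limiting Zfp36l2 to the gene body left 0 opened and 0 closed, as its calls are intergenic; the body's single region was also not called by DESeq2 or at an unadjusted edgeR p below 0.05.

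Same-numbered libraries of the 2 groups did not stand out. Their deviations from the group means had correlations of -0.02, -0.08 and 0.08 for replicates 1, 2 and 3. Those of different-numbered libraries ran from -0.11 to 0.09. With 3 libraries per group, such values cannot show that libraries were unpaired. With the replicate number as a block, 10 regions opened and 2 closed at both loci, 2 closed at Thada and 0 closed at Zfp36l2. That fit has fewer residual degrees of freedom by construction. Of 195 comparisons of a named region's fold with an alternative, 188 kept direction and call, and 4 lost the call, all of them at the weak region 84314337 with a library left out. The other 3 turned sign with loess scaling in regions that were not called: 84187851 at the end of Zfp36l2 (-0.0467), the Thada promoter region 84466031 (-0.0117) and 84096467 at the 100 kb limit (0.018). The cause was not tested. Summed CPM of the 54 regions gave a ratio of 1.10 with total counts and 1.13 with TMM. Peaks required to cover 50% of a region, or to reach a −log10 q of 10, left each library's count of covered regions within 1.5 times. The alternatives for Zfp36l1, Btg1, the decay list, the neighbours and the stretches of Thada were chosen after seeing the data. Depth limits the weakest regions, the lowest with 16 counts in a library.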

Other observations

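Some deposited peaks in the stretch from the first to the last of the 54 regions overlap no region of the count table. Per library there were 9, 5 and 10 such peaks with SMARTA cells and 6, 10 and 11 without, among 56, 46 and 61 peaks in the stretch with SMARTA cells and 51, 60 and 63 without. Their accessibility was not compared here, since the table holds no counts for them.

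Some of the intergenic regions beside Zfp36l2 lie in long noncoding RNA genes. Of the Zfp36l2 regions, 4 lie in Gm41640, of which 1 opened, and 5 lie in Gm19696, of which 1 closed. Median log2 folds were 0.31 in Gm41640 (0.14 to 0.67) and -0.18 in Gm19696 (-0.84 to 0.24), over regions chosen with these results in view. The difference was not tested.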
